A study of Mus musculus with 10 samples.

Results

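The genes described here encode the transport machinery of the primary cilium. They were taken by symbol from a fixed list of 40 genes for the intraflagellar transport complexes IFT-A and IFT-B, the motors that move them, the BBSome cargo adaptor and 5 proteins of the ciliary membrane, tip and base that act in hedgehog signalling. All 40 symbols were found among the 25239 gene symbols of the count table. All 40 also passed the filter on low counts.

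The libraries were RNA-seq libraries of mouse cells sorted by flow cytometry from the calvarial suture at postnatal day 7, with 5 libraries of a population called DDR2-plus and 5 of another called PSC, which stays unexpanded in the labels. Every library carries the genotype label WT, while the protocol describes Ctsk-Cre mice, in which the promoter of the cathepsin K gene drives Cre recombinase. The protocol states 5 animals, and which animal gave which library is not stated, so p-values describe variation between libraries only. The library titles use the same suture numbers in both populations. What a shared number means is not stated, and the main fit did not pair the libraries. Each library started from 1 ng of RNA and was made with a full-length cDNA amplification kit and transposase, which keeps no strand.

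The primary cilium is a single, non-motile, microtubule-based projection of the cell surface. Kinesin-2 carries IFT-B trains from its base to its tip, dynein-2 with IFT-A returns them, and the BBSome rides the trains to move membrane proteins out of the cilium. In skeletal cells the cilium is the place where hedgehog signals are received, and inherited loss of these genes causes short-rib, cranioectodermal and Bardet-Biedl syndromes.

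Promoter sequences of the genes are shown first, because many ciliary genes are known to carry the X-box bound by RFX transcription factors near their start, and the factors themselves were measured in these libraries. RefSeq promoter windows (GRCm38.p6, from 250 bases before to 50 bases after a gene's start) were matched for 35 of the 40 genes; Dync2li1, Ift122, Ift80, Ift81 and Ttc30b were not matched. The X-box half-site GTTGCCNNG, searched on both strands, was present in 11 of the 35 (31.4%) and in 5% of all 32851 windows searched. It was 1 of 11 nested spellings tried, and it was chosen after the matches had been seen. Of the 11 spellings, 7 had no match in these genes. The full form of the X-box, an inverted repeat of both half-sites, was found in Bbs7 and Ttc26 in the spelling used for it here. In that spelling it was found in none of the genes that passed the test. Another of the spellings tried also held both half-sites but left more of the second open. It matched Bbs7, Ttc26, Ift57 and Bbs1, of which Bbs1 was higher in DDR2-plus cells and the others did not pass. The lines give the match in capitals within its flanking bases, on the strand of the match, for 3 genes that were higher in DDR2-plus cells, 2 that were lower and 2 that did not pass the test:
Wdr35, chr12:8974031-8974050: ggcggcggtgGTTGCCAGGc
Ift88, chr14:57424079-57424107: acgcccagccGTTGCCAGGcgcgactcca
Bbs1, chr19:4906608-4906636: ggctgagctgGTTGCCAAGgcgacgcctg
Ift27, chr15:78174072-78174100: gttgatgatgGTTGCCAGGagcctgtttg
Evc, chr5:37337049-37337077: gagcgttcagGTTGCCCTGagtcctgagc
Bbs7, chr3:36613492-36613520: atgcgccccgGTTGCCTTGgaaaccggcc
Ttc26, chr6:38381481-38381509: tcccggcggcGTTGCCGTGgaaacggagc

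The half-site was also present at Arl13b, Dync2h1, Ift57 and Traf3ip1. It was found in 4 of 10 matched genes that were higher in DDR2-plus cells, in 2 of 4 that were lower and in 5 of 21 that did not pass the test. A match describes letters in these windows and is not a measured binding site.

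Library totals ran from 43419129 to 62021992 counts, so that 1 count stood for 0.0146 to 0.0249 CPM (counts made comparable between libraries with edgeR's TMM factors and the library total). Ddr2 itself measured 112 ± 3.56 CPM (SD, n = 5) in the libraries labelled DDR2-plus and 152 ± 10.7 CPM in PSC, and was lower in the former with TMM scaling and with library size alone (adjusted p = 0.000165 and 0.0498). Ctsk measured 107 ± 15.2 and 294 ± 15.0 CPM. The DDR2-plus libraries held more chondrocyte marker RNA and the PSC libraries more osteoblast marker RNA, and in each case the ranges did not overlap. DDR2-plus 4 had the highest summed level of motile cilium genes and of ependymal and choroid plexus genes, and DDR2-plus 5 that of olfactory genes. Results on the 40 genes are therefore also given without these 2 libraries where their call depended on them. These 2 libraries also had the highest sums of the 40 genes. Smaller differences and fewer higher calls without them are therefore in part set by the choice, and say nothing about those cell types. In bulk libraries, fewer cells of a type and less RNA per cell cannot be told apart.

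Of the 40 genes, 13 rose and 4 fell in DDR2-plus relative to PSC cells, and 23 did not pass the test (edgeR's quasi-likelihood test, Benjamini-Hochberg adjusted p under 0.05 over the 15416 genes tested). The share called, 42.5%, lay near the 39.1% of all tested genes that were called. The share called higher was 32.5%, where 20.1% of all tested genes were, and the share called lower was 10%, where 19.0% were. Each group below holds only 5 to 9 genes, and its counts stand beside the same 20.1% and 19.0% of all tested genes. The median log2 fold change was 0.34 over the 40 genes and 0.04 over all tested genes, and 33 of the 40 values were positive. The values of both populations did not overlap for 11 of the 40 genes (27.5%), against 30.1% of all tested genes. Wdr35 and Ift80 passed the test and were at least 2-fold higher, which 9.94% of all tested genes also were. Most differences were therefore small, with 38 of the 40 below 2-fold in either direction.

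**Figure D1:**
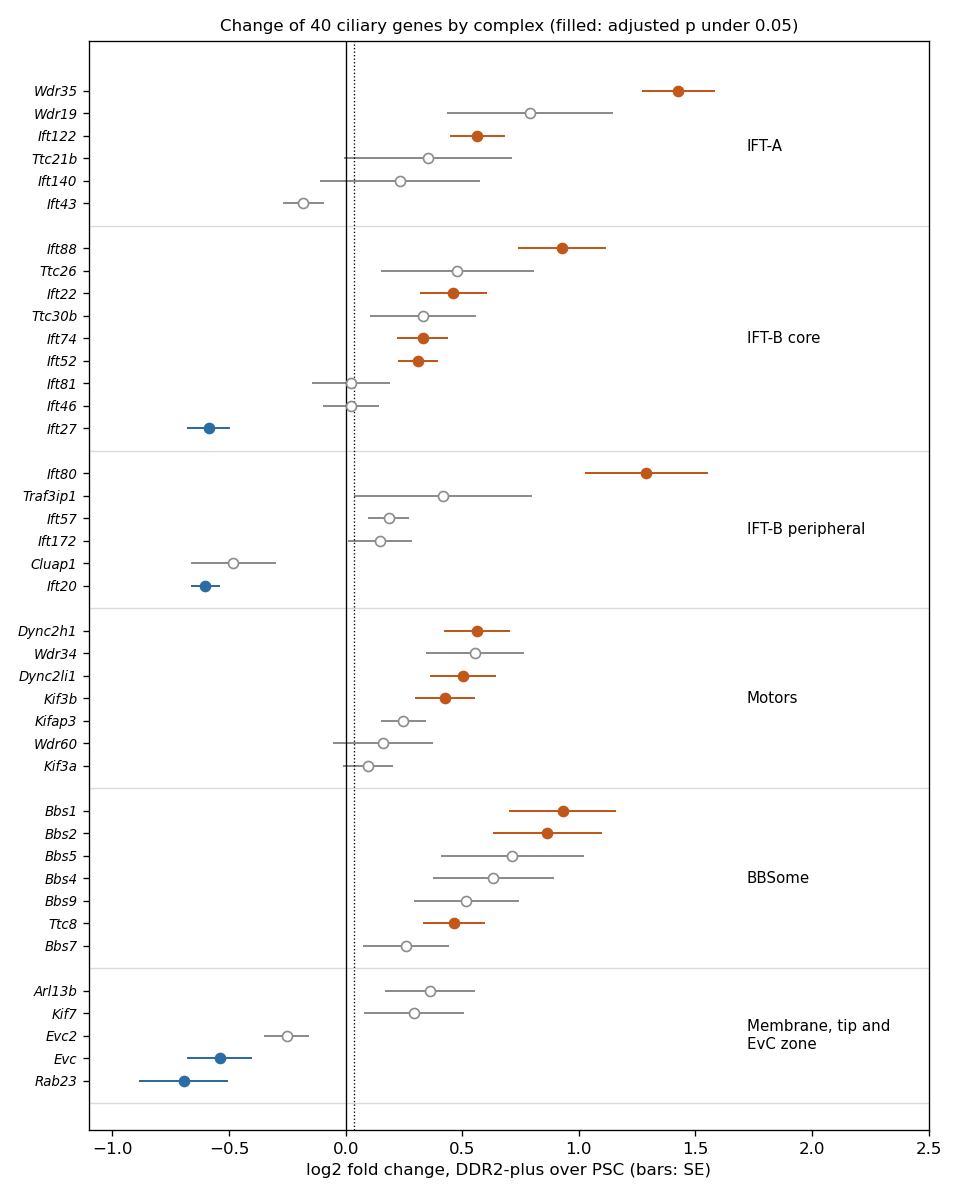
Log2 fold change of each of the 40 genes (x axis, DDR2-plus over PSC) with its standard error as a bar, grouped by complex on the y axis; filled points have an adjusted p under 0.05, orange higher and blue lower, and the dotted line is the median of all tested genes. Wdr35 at 1.43 and Ift80 at 1.29 lie farthest to the right, all 7 BBSome points lie to the right of 0, and the blue points are Ift27, Ift20, Evc and Rab23.

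IFT-A is the complex of the return journey and of membrane protein entry. Of its 6 genes, 2 rose and none fell, with a median log2 fold change of 0.46. Wdr35 encodes a subunit that is lost in cranioectodermal dysplasia, a disorder that includes early fusion of skull sutures (chr12:8973892-9028847, mm10, plus strand). It measured 51.8, 74.7, 45.1, 61.4 and 50.8 CPM in DDR2-plus libraries 1 to 5 against 19.4, 23.4, 18.4, 26.8 and 17.6 CPM in PSC libraries 1 to 5. Every DDR2-plus library stood above every PSC library. The means were 56.8 ± 11.6 and 21.1 ± 3.89 CPM (SD, n = 5 each). The log2 fold change was 1.43 (SE 0.156, adjusted p = 1.6e-05). Ift122, another IFT-A subunit of the same disease group, had less spread (chr6:115853470-115926699, plus strand). It measured 30.5, 30.8, 28.2, 34.2 and 33.8 CPM in DDR2-plus against 20.8, 20.5, 16.7, 22.6 and 25.9 CPM in PSC. The ranges stayed apart, and the level was 1.48-fold higher in DDR2-plus (log2 0.56, SE 0.118, adjusted p = 0.00219).

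The other IFT-A genes did not pass the test. Ift43, a small subunit and the one with the highest level per kilobase of exon in the complex, measured 27.3, 26.5, 31.1, 31.1 and 31.1 CPM in DDR2-plus against 32.7, 34.5, 35.2, 34.8 and 29.7 CPM in PSC. The groups overlapped through PSC 5 (log2 -0.18, adjusted p = 0.124), and the sign turned to 0.09 when libraries were scaled by their size alone. Wdr19 measured 16.5, 14.7, 12.3, 18.6 and 22.9 CPM in DDR2-plus against 10.1, 8.65, 10.8, 2.68 and 16.9 CPM in PSC. Its PSC values spread from a low PSC 4 to a high PSC 5, and its log2 difference of 0.79 (adjusted p = 0.0972) passed the test without PSC 5 (1.08, adjusted p = 0.0275). Ift140 and Ttc21b had differences of 0.23 and 0.35 (adjusted p = 0.633 and 0.475), and both were lowest in PSC 5, at 3.96 and 2.54 CPM.

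The IFT-B core builds the train backbone. Of its 9 genes, 4 rose (Ift88, Ift22, Ift74 and Ift52) and 1 fell (Ift27), with a median log2 fold change of 0.33. Ift88, the subunit whose loss is a standard way of removing cilia in mice (chr14:57424062-57517936, plus strand), measured 12.2, 16.7, 9.02, 15.0 and 15.3 CPM in DDR2-plus against 7.27, 5.67, 6.65, 8.20 and 7.99 CPM in PSC. DDR2-plus 3 was the lowest of its group and still above every PSC library. The level was 1.904-fold higher in DDR2-plus (log2 0.93, SE 0.189, adjusted p = 0.00181). Ift27 is a small GTPase-like subunit that links the train to BBSome exit (chr15:78159463-78174107, minus strand). It measured 32.5, 24.4, 31.8, 29.6 and 30.3 CPM in DDR2-plus against 44.4, 44.6, 46.4, 40.4 and 47.4 CPM in PSC. Here every PSC library was the higher, by 1.502-fold on the means (log2 -0.59, SE 0.0930, adjusted p = 0.000295).

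Ift52, a backbone subunit that holds the core together (chr2:163017354-163046141), measured 36.8, 40.1, 33.8, 36.4 and 36.9 CPM in DDR2-plus against 29.9, 26.3, 32.2, 31.5 and 28.3 CPM in PSC. The ranges were apart although the difference was small, at 1.24-fold (log2 0.31, SE 0.0866, adjusted p = 0.0125). Ift22, a GTPase-like subunit, and Ift74, a tubulin-binding partner of Ift81, had overlapping groups, with means of 23.5 against 17.1 and 26.9 against 21.4 CPM and adjusted p of 0.0218 and 0.0313. Single libraries decided both. Ift22 missed the threshold without DDR2-plus 3, DDR2-plus 4 or PSC 3 (adjusted p = 0.0594, 0.0620 and 0.0521). Ift74 missed it without any of DDR2-plus 1, 2, 4 and 5 and PSC 2 and 4 (adjusted p from 0.0670 to 0.0883). Without both DDR2-plus 4 and 5, Ift52, Ift22 and Ift74 no longer passed (adjusted p = 0.0647, 0.0681 and 0.191).

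Ift46 had nearly the same mean in both populations, and its groups overlapped throughout. It measured 34.5, 32.8, 36.1, 42.3 and 34.4 CPM in DDR2-plus against 29.4, 33.1, 33.8, 35.3 and 45.9 CPM in PSC (log2 0.02, SE 0.121, adjusted p = 0.902). Ift81, Ttc26 and Ttc30b had log2 differences of 0.02, 0.48 and 0.33 and adjusted p of 0.928, 0.277 and 0.273. Ttc30b has near-identical copies in the genome, and its counts are therefore uncertain.

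The peripheral part of IFT-B carries tubulin and membrane cargo and contacts the kinesin. Of its 6 genes, 1 rose and 1 fell, with a median log2 fold change of 0.17. Ift20, the subunit with an additional pool at the Golgi that sorts membrane proteins towards the cilium (chr11:78536361-78541737, plus strand), measured 91.2, 97.8, 94.7, 86.2 and 98.2 CPM in DDR2-plus against 152, 138, 142, 137 and 141 CPM in PSC. The lowest PSC library stood well above the highest DDR2-plus library, and both groups varied little. The level was 1.52-fold lower in DDR2-plus (log2 -0.60, SE 0.0623, adjusted p = 1.05e-05). Ift80 is a subunit lost in asphyxiating thoracic dysplasia (chr3:68892499-69004570, minus strand). It measured 20.8, 20.01, 17.0, 26.4 and 22.0 CPM in DDR2-plus against 6.43, 13.1, 6.21, 5.08 and 12.7 CPM in PSC. PSC 2 and 5 lay between the other PSC libraries and the DDR2-plus group without reaching it, and the level was 2.44-fold higher in DDR2-plus (log2 1.29, SE 0.264, adjusted p = 0.00187).

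Ift57, which contacts the kinesin-2 motor, measured 45.7, 57.4, 47.7, 52.7 and 47.3 CPM in DDR2-plus against 47.1, 47.4, 38.9, 42.7 and 44.6 CPM in PSC. The groups overlapped (log2 0.18, adjusted p = 0.121). Ift172 and Traf3ip1 had log2 differences of 0.15 and 0.42 (adjusted p = 0.430 and 0.421). Cluap1 lay just outside the threshold in the lower direction (log2 -0.48, adjusted p = 0.0537) and passed it without DDR2-plus 3, DDR2-plus 5 or PSC 3 (adjusted p = 0.0434, 0.0343 and 0.0289). Of its exonic bases, 40.8% are shared with other annotated genes, whose reads cannot be told apart without strand.

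**Figure D2:**
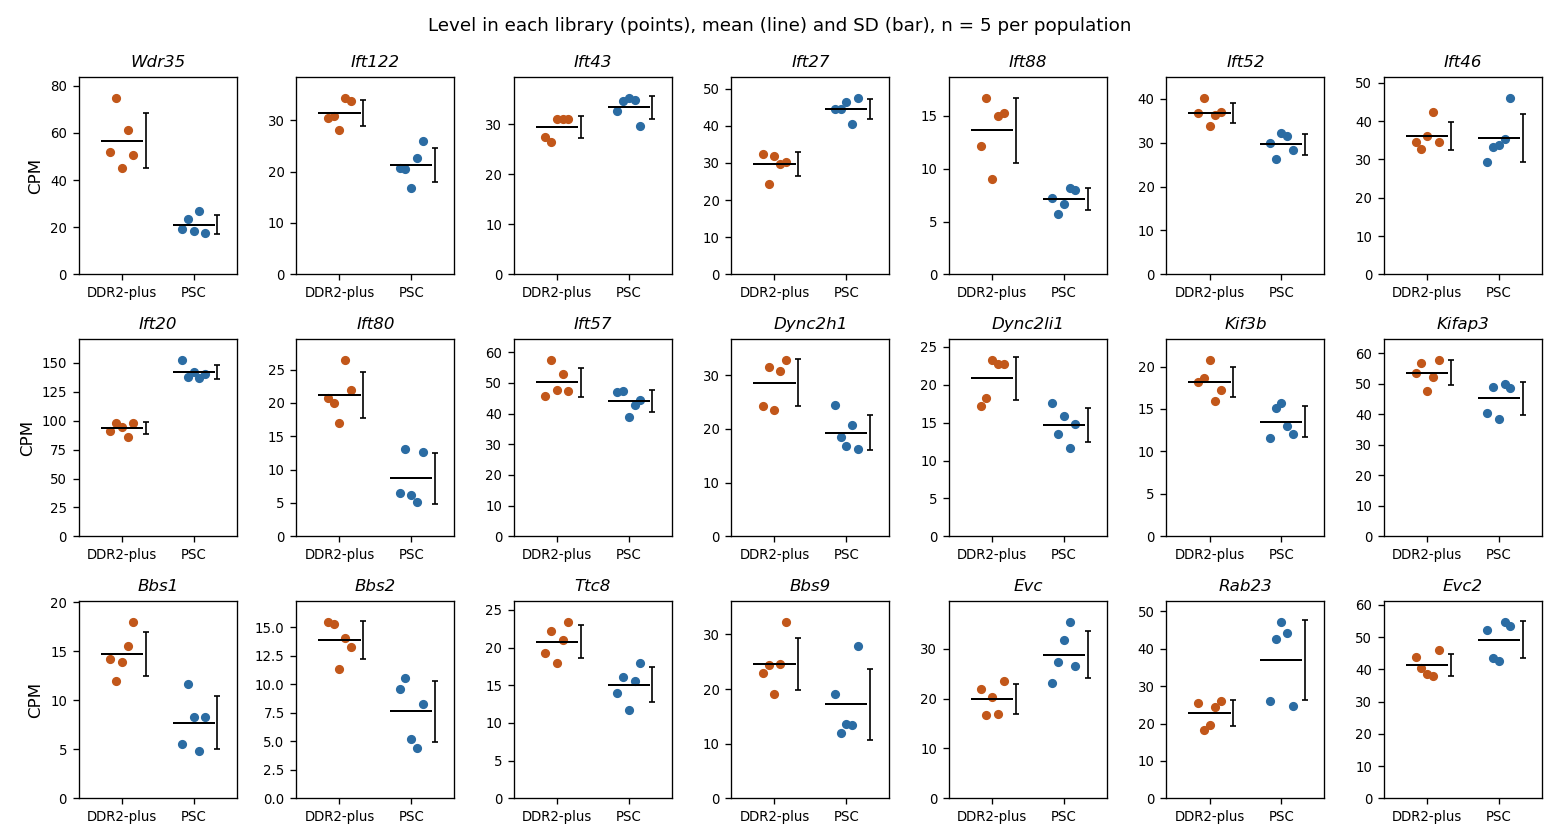
Level in CPM (y axis, from 0) of 21 of the 40 genes in each DDR2-plus library (orange points) and each PSC library (blue points), with the mean as a line and the SD as a bar, n = 5 per population. The orange and blue points are apart for Wdr35, Ift88, Ift80 and Bbs1 with orange higher, and for Ift20 and Ift27 with blue higher.

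All 7 motor genes had positive differences, with a median log2 fold change of 0.43. Of these, 3 rose and none fell. Dync2h1, the heavy chain of the dynein-2 return motor (chr9:6928503-7184446, minus strand), measured 24.3, 31.6, 23.4, 30.8 and 32.7 CPM in DDR2-plus against 24.4, 18.4, 16.8, 20.6 and 16.2 CPM in PSC. PSC 1 reached the level of DDR2-plus 1 and 3, so the groups overlapped, while the mean was 1.48-fold higher in DDR2-plus (log2 0.56, SE 0.141, adjusted p = 0.00665). Dync2li1, the light intermediate chain that stabilises the heavy chain (chr17:84626496-84655588), measured 17.2, 18.3, 23.2, 22.7 and 22.8 CPM in DDR2-plus against 17.6, 13.5, 15.8, 11.7 and 14.8 CPM in PSC. DDR2-plus 1 lay below PSC 1, and the mean was 1.42-fold higher in DDR2-plus (log2 0.50, SE 0.141, adjusted p = 0.0127). Neither dynein-2 gene passed the test without DDR2-plus 4 and 5 (adjusted p = 0.0703 for Dync2h1 and 0.110 for Dync2li1).

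Kif3b, a motor subunit of kinesin-2 (chr2:153291413-153333390), measured 18.2, 18.7, 20.7, 15.99 and 17.2 CPM in DDR2-plus against 11.6, 15.2, 15.7, 13.03 and 12.1 CPM in PSC. The groups were close and did not overlap (1.34-fold higher, log2 0.43, SE 0.128, adjusted p = 0.0187), and the call was lost without DDR2-plus 2 or DDR2-plus 3 (adjusted p = 0.0501 and 0.0571). Its partner Kif3a measured 28.9 ± 2.94 CPM in DDR2-plus against 27.0 ± 3.04 CPM in PSC (log2 0.10, adjusted p = 0.510). Kifap3, the cargo-binding subunit of the same motor, measured 53.6, 56.9, 47.6, 52.2 and 57.7 CPM in DDR2-plus against 40.4, 48.9, 38.3, 49.8 and 48.5 CPM in PSC. The groups overlapped through DDR2-plus 3, and the difference lay just outside the threshold (log2 0.25, adjusted p = 0.0567), which it passed without DDR2-plus 3 or PSC 4 (adjusted p = 0.0453 and 0.0465).

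The dynein-2 intermediate chains Wdr34 and Wdr60 had log2 differences of 0.55 and 0.16 (adjusted p = 0.0520 and 0.597). Wdr34 measured 27.2 CPM in PSC 5, where the next PSC library had 15.6 CPM. It passed the test without PSC 5 (log2 0.81, adjusted p = 0.000939) and without DDR2-plus 1 (0.61, adjusted p = 0.0481).

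The 7 BBSome genes all had positive differences, with a median log2 fold change of 0.63. Without DDR2-plus 4 and 5 that median was 0.41, the same as for the motors and beside 0.40 for IFT-A. Of the 7 genes, 3 rose and none fell. Bbs1, the subunit that meets the GTPase recruiting the complex to membranes (chr19:4886878-4906628, minus strand), measured 14.2, 12.0, 13.9, 15.5 and 18.0 CPM in DDR2-plus against 5.54, 11.7, 8.34, 4.79 and 8.29 CPM in PSC. PSC 2 came close to DDR2-plus 2 without overlapping it, and the mean was 1.91-fold higher in DDR2-plus (log2 0.93, SE 0.230, adjusted p = 0.00623). Bbs2, a core subunit (chr8:94067954-94098928), measured 15.5, 15.3, 11.4, 14.0 and 13.3 CPM in DDR2-plus against 9.61, 10.5, 5.23, 4.44 and 8.29 CPM in PSC. PSC 3 and PSC 4 were the low libraries, and the groups did not overlap (1.82-fold higher, log2 0.86, SE 0.234, adjusted p = 0.0106).

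Ttc8, also called Bbs8 (chr12:98920574-98983238), measured 19.2, 22.3, 18.0, 21.1 and 23.4 CPM in DDR2-plus against 13.9, 16.1, 11.7, 15.6 and 17.9 CPM in PSC. The highest PSC library stood just under the lowest DDR2-plus library (1.38-fold higher, log2 0.47, SE 0.133, adjusted p = 0.0143). Without DDR2-plus 4 and 5, Bbs2 still passed, while Bbs1 (log2 0.79, adjusted p = 0.0563) and Ttc8 (log2 0.39, adjusted p = 0.104) did not. Bbs9, the member not past the threshold with the highest level per kilobase, measured 22.9, 24.4, 19.0, 24.6 and 32.2 CPM in DDR2-plus against 19.1, 12.0, 13.7, 13.5 and 27.8 CPM in PSC. PSC 5 stood above 4 of the 5 DDR2-plus libraries (log2 0.52, adjusted p = 0.0857), and Bbs9 passed the test without it (log2 0.76, adjusted p = 0.00542).

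Bbs4, Bbs5 and Bbs7 had log2 differences of 0.63, 0.71 and 0.26 (adjusted p = 0.0715, 0.0829 and 0.299). Bbs4 passed the test without DDR2-plus 2 (adjusted p = 0.0462) or PSC 5 (adjusted p = 0.0200), and Bbs5 without PSC 2 (adjusted p = 0.0114).

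The 5 genes of the ciliary membrane, tip and base linked to hedgehog signalling had the only negative median among the 6 groups with TMM scaling, at -0.25 (0.02 with library size alone). Of these, 2 fell and none rose. Evc, which with Evc2 forms the complex at the cilium base that passes the signal on from Smoothened (chr5:37289098-37336894, minus strand), measured 21.9, 16.7, 20.2, 16.9 and 23.4 CPM in DDR2-plus against 23.2, 27.4, 31.7, 35.3 and 26.5 CPM in PSC. The groups touched at DDR2-plus 5 and PSC 1, and the mean was 1.45-fold lower in DDR2-plus (log2 -0.54, SE 0.139, adjusted p = 0.00794). Rab23 is a GTPase that restrains hedgehog signalling and is lost in Carpenter syndrome, another disorder with early suture fusion (chr1:33719887-33742564, plus strand). It measured 25.6, 18.3, 19.7, 24.4 and 26.1 CPM in DDR2-plus against 26.1, 42.5, 47.1, 44.3 and 24.7 CPM in PSC. PSC 2, 3 and 4 were high, while PSC 1 and 5 lay at the level of the highest DDR2-plus libraries (1.62-fold lower, log2 -0.69, SE 0.191, adjusted p = 0.0118).

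Evc2 measured 43.7, 40.4, 38.6, 38.0 and 45.9 CPM in DDR2-plus against 52.2, 43.4, 42.4, 54.6 and 53.5 CPM in PSC. The groups overlapped, and the difference of -0.25 lay just outside the threshold (adjusted p = 0.0559). It passed without DDR2-plus 5, PSC 2 or PSC 3 (adjusted p = 0.0388, 0.0351 and 0.0291), and its sign turned to 0.02 with library size alone. Arl13b, a GTPase of the ciliary membrane, and Kif7, the kinesin of the ciliary tip, had differences of 0.36 and 0.29 (adjusted p = 0.162 and 0.308). Arl13b passed without PSC 2 (log2 0.54, adjusted p = 0.0240).

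Levels per kilobase of exon allow genes to be set against each other roughly. The length is the union of all annotated exons of a gene, so ranks depend on the annotation. On that scale Ift20 was the highest of the 40 in both populations, at 61.4 CPM per kilobase in DDR2-plus and 93.2 in PSC. Ift43 and Ift57 followed in DDR2-plus at 17.8 and 17.5 CPM per kilobase. Ttc21b was the lowest there, at 1.21 CPM per kilobase. Within IFT-A, Wdr35 made up 23.5% ± 4.34 of the summed per-kilobase level in DDR2-plus and 10.2% ± 1.52 in PSC (SD, n = 5 each). These shares do not depend on how libraries are scaled, but they do depend on the exon lengths used. Ift43 made up 53.8% of IFT-A in DDR2-plus and 70.9% in PSC, Ift27 17.5% and 28.5% of the IFT-B core, and Ift20 67.3% and 77.1% of peripheral IFT-B. These shares thus differed between the populations within IFT-A and within both parts of IFT-B at the RNA level. Wdr35, Ift27 and Ift20 had themselves been called higher or lower, so their shares are no separate result. Ift43 did not pass the test, and a rise of Wdr35 by itself lowers the share of Ift43.

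The ratio of the return motor to the outward motor was taken as Dync2h1 over Kif3a per kilobase. It was 0.217 ± 0.0274 in DDR2-plus and 0.158 ± 0.0305 in PSC, and the highest PSC libraries, at 0.195 and 0.186, lay around the lowest DDR2-plus libraries at 0.193. The ratio of Wdr35 to Wdr19 was 5.395 and 5.389, with 15.5 in PSC 4. Evc over Evc2 was 0.363 ± 0.0366 and 0.449 ± 0.0925, and Bbs1 over Bbs7 was 0.937 ± 0.1001 and 0.592 ± 0.228. The groups overlapped for each of these ratios. They did not overlap for Ift88 over Ift20, at 0.0480 ± 0.0107 in DDR2-plus and 0.0166 ± 0.00251 in PSC. Those genes had themselves been called higher and lower, respectively.

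Counted together, the 40 genes made up 0.109% ± 0.00577 of all counts in DDR2-plus and 0.0821% ± 0.00239 in PSC. After TMM scaling their summed level was 995 ± 62.4 and 902 ± 19.2 CPM, and the ranges overlapped (913.7 to 1079 and 881.9 to 926.9 CPM). IFT-A ran from 136.9 to 178.6 CPM in DDR2-plus against from 96.6 to 112.1 CPM in PSC, and peripheral IFT-B from 198.9 to 220.7 and from 229.7 to 248.7 CPM. Neither pair of ranges overlapped. The motors, at 173.6 to 208.8 CPM in DDR2-plus and 139.6 to 167.8 CPM in PSC, did not overlap either. The BBSome was barely apart, at 92.94 to 127.3 and 55.54 to 92.54 CPM. The ranges overlapped for the IFT-B core and for the hedgehog-linked genes. Wdr35 by itself added a mean of 56.8 CPM to the DDR2-plus sum of IFT-A, and 21.1 CPM to that of PSC. Whether the IFT-A ranges stay apart with Wdr35 left out was not tested. Without Ift20, the peripheral sum was not the lower in DDR2-plus, and the other 5 genes ran from 104.2 to 130.3 CPM in DDR2-plus and from 87.5 to 108 CPM in PSC, with overlap.

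Libraries of a group did not vary alike. The coefficient of variation had a median over the 40 genes of 15.2% in DDR2-plus and 19.1% in PSC, and 34 of the 40 genes varied more in PSC. DDR2-plus 5 was the highest of its group for 19 genes and DDR2-plus 3 the lowest for 19. PSC 5 was the highest of its group for 13 genes and the lowest for 10. It was the library whose omission let Wdr19, Wdr34, Bbs4 and Bbs9 pass the test.

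**Figure D3:**
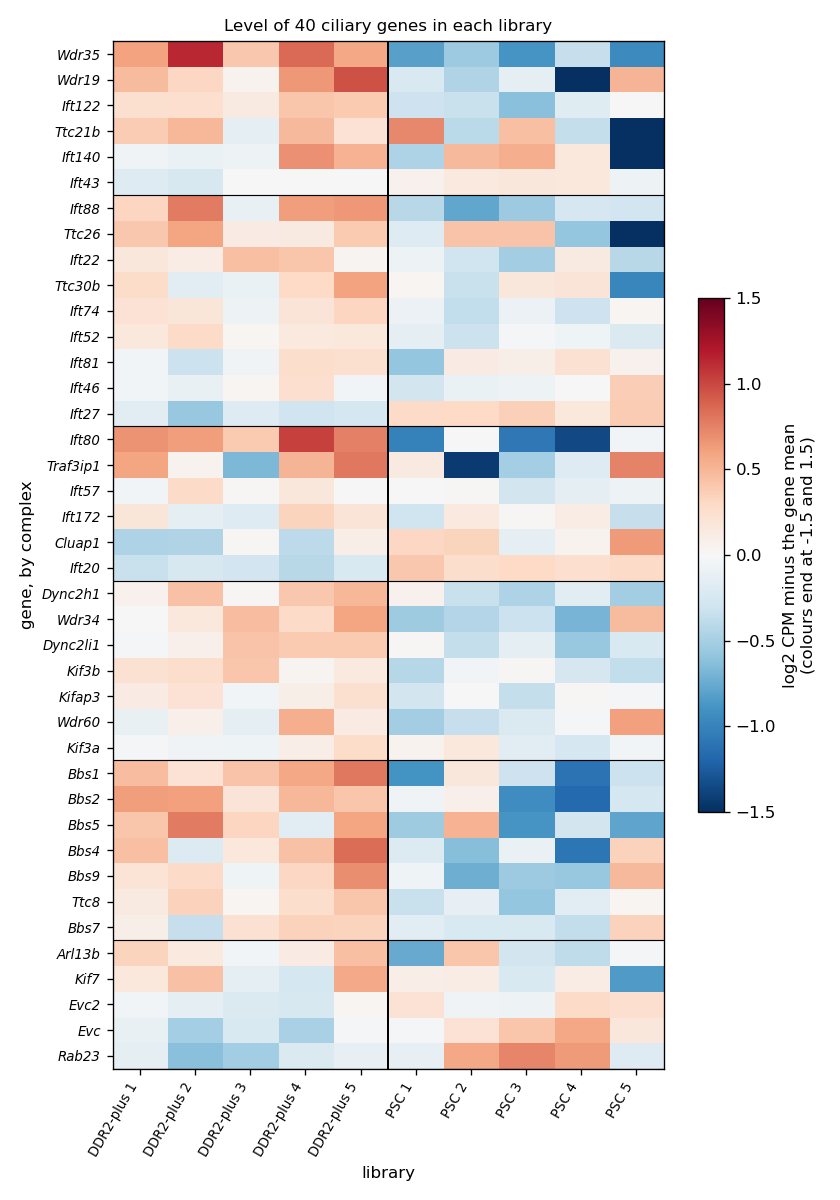
Level of the 40 genes (rows, grouped by complex) in the 10 libraries (columns), as log2 CPM minus the gene's mean, red above and blue below, with colours ending at -1.5 and 1.5. The rows of Wdr35, Ift88, Ift80 and the BBSome are mostly red in DDR2-plus and blue in PSC, Ift20 and Ift27 show the opposite, and PSC 5 holds both strong red and strong blue cells.

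The 40 genes were set beside 65 tested genes of other cilium lists, of which 22 rose and 4 fell, with a median log2 fold change of 0.37. The shares, 33.8% higher and 6.15% lower, were close to those of the 40 genes. Of 24 transition zone genes, which form the gate at the cilium base, 6 rose and 1 fell (25% and 4.17%). Of all tested genes, 20.1% rose and 19.0% fell. Iqcb1 (Nphp5) had means of 20.6 and 7.87 CPM in DDR2-plus against PSC (2.62-fold higher, adjusted p = 1.78e-05). Ahi1, the Joubert syndrome gene jouberin, had means of 25.4 and 10.9 CPM (2.34-fold higher, adjusted p = 0.000197). B9d2, a subunit of the B9 complex of the gate, went the other way, with 13.2 and 22.3 CPM (1.69-fold lower, adjusted p = 0.000442).

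Of 16 basal body and centriolar satellite genes, 8 rose and 1 fell (50% and 6.25%, where 20.1% and 19.0% of all tested genes did). Pcm1, the satellite scaffold, had means of 53.0 and 33.9 CPM (1.57-fold higher, adjusted p = 0.000371). Odf2, of the mother centriole appendages, had 60.2 and 38.1 CPM (1.58-fold higher, adjusted p = 0.00342). Cep164, the distal appendage protein needed to dock the centriole, was the gene that fell, with 13.5 and 21.6 CPM (1.61-fold lower, adjusted p = 0.00143).

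Of 25 other trafficking genes 8 rose and 2 fell (32% and 8%, where 20.1% and 19.0% of all tested genes did). Tbc1d32, a regulator of ciliary signalling also called Broad-minded, had means of 8.49 and 3.79 CPM (2.24-fold higher, adjusted p = 0.00969), with adjusted p = 0.0505 without DDR2-plus 4 and 5. Dynll1, a dynein light chain used by many complexes, had 207 and 245 CPM (log2 -0.24, adjusted p = 0.0134), and its sign turned to 0.03 with library size alone (adjusted p = 0.768), and its adjusted p was 0.0681 without DDR2-plus 4 and 5. Mak, a ciliary kinase with high expression in photoreceptors and testis, had a mean of 0.81 CPM in DDR2-plus against 1 count in the 5 PSC libraries together. Photoreceptor and pineal marker genes were also mostly higher in DDR2-plus, and their part in the value of Mak was not tested. The DDR2-plus libraries did not rank alike for both. Mak was highest in DDR2-plus 2, at 1.904 CPM, where the summed level of those markers was the lowest of the group, at 203.7 CPM.

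Of 10 tested transcription factors of ciliary genes, 5 rose and none fell, where 20.1% and 19.0% of all tested genes did. Rfx3, which binds X-boxes, measured 12.9, 9.75, 14.1, 12.6 and 14.2 CPM in DDR2-plus against 6.35, 3.36, 3.96, 3.16 and 3.84 CPM in PSC. No DDR2-plus library came near the PSC group, and the level was 3.07-fold higher (SE of log2 0.219, adjusted p = 8.59e-05). Its adjusted p without DDR2-plus 4 and 5 was 0.00173. Rfx7 was 1.35-fold higher (adjusted p = 0.0454), with adjusted p = 0.0784 without these 2 libraries. The call on Rfx7 was also lost without DDR2-plus 1, 2 or 4 or PSC 2, 3, 4 or 5 (adjusted p from 0.0666 to 0.127). Rfx1, Rfx2 and Rfx5 had means of 11.9 and 10.5, 6.76 and 9.20, and 13.4 and 9.55 CPM and did not pass (adjusted p = 0.517, 0.360 and 0.121).

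Foxj1, the master factor of motile rather than primary cilia, measured 3.95, 4.74, 9.92, 17.8 and 3.63 CPM in DDR2-plus against 1.26, 0.653, 0.556, 1.58 and 0.648 CPM in PSC. DDR2-plus 3 and 4 stood out, and the mean was 8.50-fold higher (adjusted p = 0.000477). Rfx4 had 2.45 ± 1.76 CPM in DDR2-plus against 6 counts in the 5 PSC libraries together (adjusted p = 0.00059). Myb, also active in multiciliated cells, had 2.60 ± 1.96 CPM and likewise 6 counts (adjusted p = 0.0012). Mcidas and Trp73 did not pass the test, and Gmnc and Foxn4 fell under the count filter.

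Direct transcriptional targets of hedgehog signalling, which is received at the cilium, did not share a direction. Ptch1, the hedgehog receptor, measured 85.2, 103, 76.1, 79.2 and 72.5 CPM in DDR2-plus against 49.3, 41.8, 59.5, 51.2 and 56.8 CPM in PSC (1.61-fold higher, adjusted p = 0.000478). Hhip, which binds and holds the ligands, measured 10.4, 14.9, 16.9, 7.64 and 10.4 CPM in DDR2-plus against 40.1, 29.9, 35.6, 20.5 and 26.9 CPM in PSC (2.54-fold lower, adjusted p = 0.000495). For Ptch1 and for Hhip the groups did not overlap.

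Gli1 measured 9.84, 11.8, 11.4, 12.8 and 13.5 CPM in DDR2-plus against 13.9, 16.8, 20.6, 13.2 and 13.8 CPM in PSC. It did not pass the test (log2 -0.40, adjusted p = 0.0590), which it passed without PSC 4 (adjusted p = 0.0453) and with DESeq2 (adjusted p = 0.0460). Of 15 tested ligands and transducers, 2 rose and 6 fell (13.3% and 40%, where 20.1% and 19.0% of all tested genes did). The ligand Ihh was 8.03-fold higher in DDR2-plus, and the co-receptors Gas1 and Boc were 2.40-fold and 1.27-fold lower (adjusted p = 1.09e-06, 5.16e-06 and 0.00254). Boc did not pass with library size alone (adjusted p = 0.479).

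RNA of several other cell types, ciliated and not, moved with the population, while endothelial, haematopoietic and muscle sums overlapped. Of all tested genes, 20.1% were higher and 19.0% lower. Of 20 tested motile cilium genes, 16 were higher in DDR2-plus and none lower. Their summed level was 30.0 to 112.5 CPM in DDR2-plus against 11.5 to 16.1 CPM in PSC, and Ccdc153 had 0 counts in all PSC libraries. All 9 ependymal and choroid plexus markers were higher, with sums of 74.4 to 1661 CPM against 4.73 to 13.4 CPM. Ttr, a choroid plexus marker, made up most of these sums in DDR2-plus, with 1555 CPM in DDR2-plus 4. Rsph1, Ccdc153, Tmem212 and Cfap126 are also in the motile cilium list, and Foxj1 is also among the transcription factors above. These lists are therefore not independent. Of 15 tested photoreceptor and pineal markers 11 were higher and 1 lower, with sums of 203.7 to 328.1 CPM against 30.4 to 38.8 CPM, and Cdhr1, Aanat, Gngt1 and Prph2 at 0 counts in all PSC libraries. All 9 olfactory markers were higher, with sums of 18.8 to 507.1 CPM against 0.766 to 2.62 CPM, and Cnga2 and Gfy at 0 counts in all PSC libraries. All 7 tested glial markers were higher (218.1 to 702.8 CPM against 8.08 to 41.2 CPM), as were 8 of 10 neuronal markers (84.0 to 274.9 CPM against 31.0 to 47.9 CPM), with Slc17a6 at 0 counts in all PSC libraries. All 9 tendon and fibroblast markers were lower (826.2 to 1185 CPM against 4650 to 5768 CPM). Of 5 endothelial markers, 2 were higher and 2 lower (21.56 to 37.75 CPM against 17.92 to 40.36 CPM). None of 3 tested haematopoietic markers passed (4.165 to 8.23 CPM against 3.149 to 7.952 CPM). Of 4 tested muscle markers, 1 was higher (8.718 to 32.89 CPM against 5.86 to 19.71 CPM).

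The summed level of the 40 genes was highest in DDR2-plus 5, at 1079 CPM, which also had the highest olfactory sum. DDR2-plus 4 was next, at 1029 CPM, with the highest motile cilium sum and the highest ependymal and choroid plexus sum. The summed level of the 40 genes was lowest of its group in DDR2-plus 3, at 913.7 CPM. There the motile cilium sum was 79.0 CPM and the ependymal and choroid plexus sum 1135 CPM, of which Ttr was 1067 CPM. DDR2-plus 3 was kept when DDR2-plus 4 and 5 were left out. Without DDR2-plus 4 and 5, 6 of the 40 genes were higher and 4 lower, where all tested genes were 14.0% higher and 13.9% lower. Ift122, Wdr35, Ift88, Ift80, Kif3b and Bbs2 were the 6 that remained higher. Ift20, Ift27, Evc and Rab23 were the 4 that remained lower, and the median over the 40 was 0.29. The sums of chondrocyte markers, 99260 to 136400 CPM against 13320 to 30660 CPM, and all 10 cell cycle genes also moved with the population. The part of any of these cell types, or of cycling cells, in the levels of the 40 genes was not tested.

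**Figure D4:**
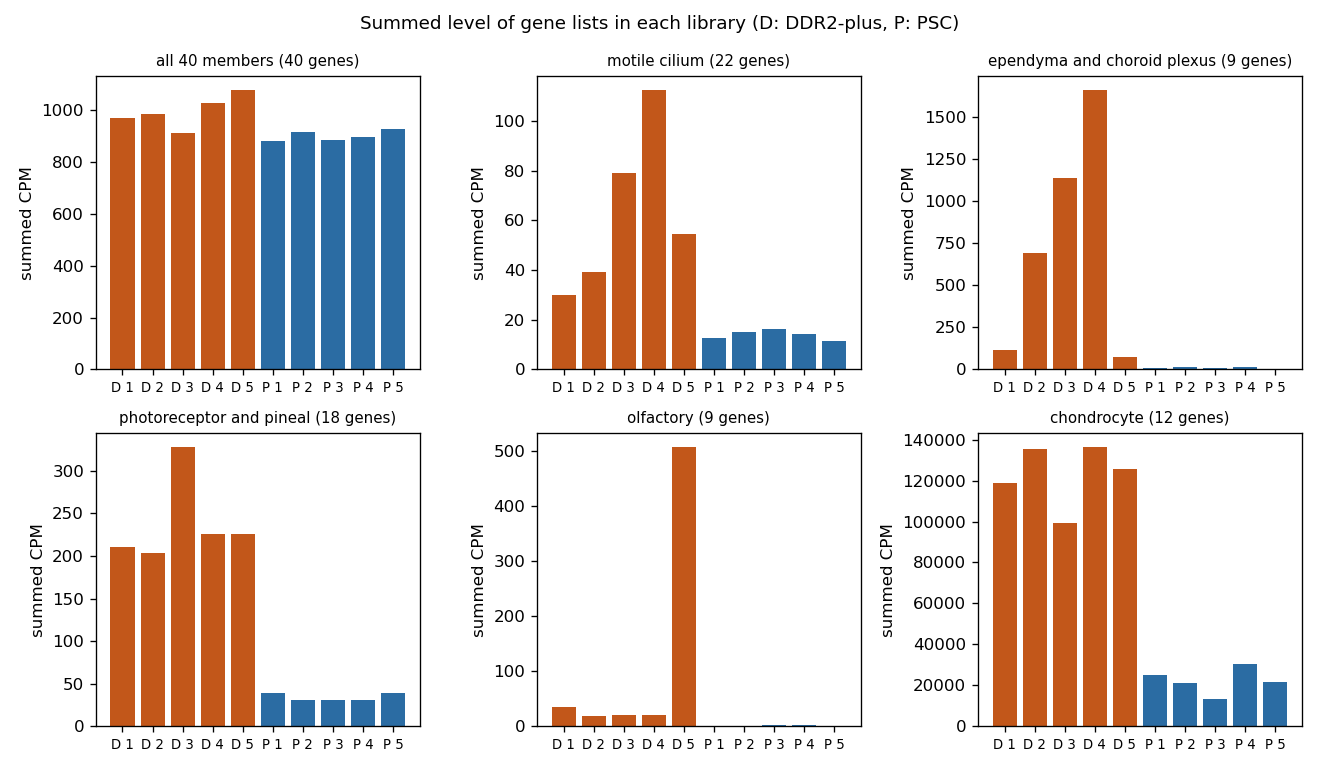
Summed level in CPM (y axis, from 0) of the 40 genes and of 5 marker lists in each library (D, DDR2-plus, orange bars; P, PSC, blue bars). The bars of the 40 genes are nearly level from 881.9 to 1079 CPM. The ependymal and choroid plexus bar, mostly Ttr, reaches 1661 CPM in D 4, and the olfactory bar 507.1 CPM in D 5.

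Scaling set how many of the 40 genes were called. Col1a1 and Col1a2 took 21.5 to 23.7% of all counts in PSC and 4.56 to 8.24% in DDR2-plus. With library size alone in place of TMM, the median over all tested genes was a log2 fold change of 0.31, and 26 of the 40 genes were higher and 2 lower, where 35.2% and 9.98% of all tested genes were. Ift20 and Ift27 remained lower under both scalings. Evc (log2 -0.27, adjusted p = 0.142) and Rab23 (log2 -0.42, adjusted p = 0.0903) did not pass with library size alone. The median of the BBSome was then 0.90 and that of the motors 0.70.

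**Figure D5:**
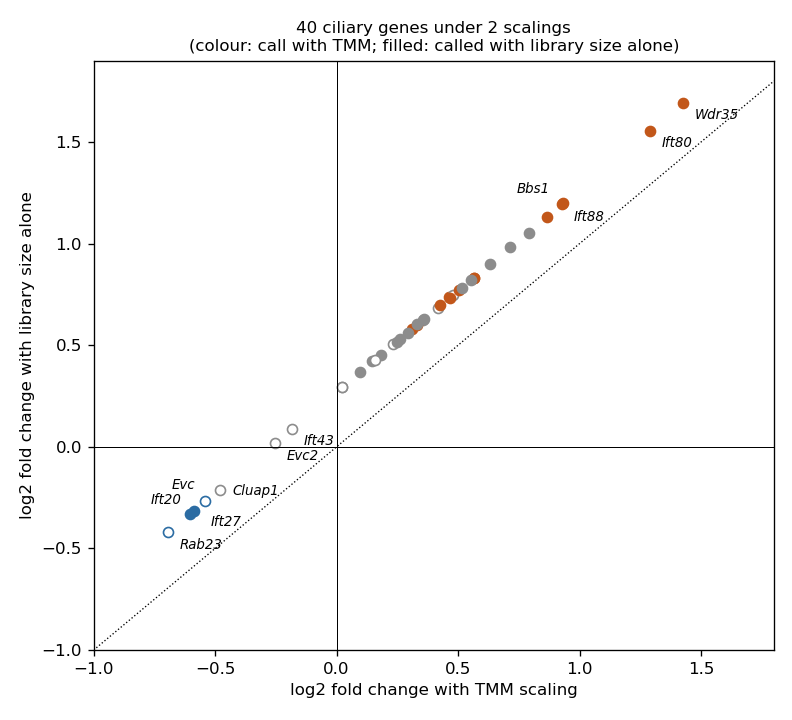
Log2 fold change of each of the 40 genes with TMM scaling (x axis) and with library size alone (y axis); colour gives the call with TMM (orange higher, blue lower, grey not past), filled points pass with library size alone, and the dotted line marks equal values. All points lie above the line, Ift43 and Evc2 change sign, and Ift20 and Ift27 are the filled points below 0.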

How the data were processed

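The authors deposited raw counts per gene symbol for 10 libraries in 1 table. DESeq and the mouse build mm10 are named in the submitters' processing notes. The annotation, like the aligner and the counting program, was not given in the sources used here. Libraries were grouped by their labels. Counts were fitted with edgeR 4.0.16 (R 4.3.3, filterByExpr, TMM, glmQLFit and glmQLFTest) over all 10 libraries, with Benjamini-Hochberg adjustment over all tested genes. SE is the log2 fold change over the root of the F statistic, and CPM are TMM-scaled. Per-kilobase levels used GENCODE M21 exon lengths. Replicates of a group differed beyond counting noise (lowest chi-square per degree of freedom 40.9). The script was tested on simulated data, where it missed part of the changes put in. Genes that did not pass the test are therefore not shown to be unchanged. The 40 genes and all other lists were chosen with earlier results of these data known. Genes with every library's value are, per complex, up to 3 past the threshold with the smallest p and the 1 not past it with the highest level per kilobase, plus the tested hedgehog targets, of which 1 is not reported here; the values of other genes are given for up to 3 per list by the same p rule, and for transcription factors. Genes decided by 1 library are also named. Alternatives included DESeq2 1.42.0, limma 3.58.1 (voom) and single libraries left out.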

Additional observations from a re-analysis of the deposited data

Results flagged for a closer look

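Among 80 sets of 5 libraries (40 genes in each population), 3 held a library far from the other 4, with a gap over 0.71 of the range of the group. Chance gives about 1 in 20. Ift81 measured 10.5 CPM in PSC 1, with the next PSC library at 16.4 CPM. Wdr34 measured 27.2 CPM in PSC 5, with the next at 15.6 CPM. Bbs7 measured 12.7 CPM in PSC 5, with the next at 8.91 CPM.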

How the results depend on the processing

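Over 18 alternative settings, 7 of the 40 genes kept their call and direction in all: Wdr35, Ift122, Ift88, Ift80 and Bbs2 higher, Ift20 and Ift27 lower. With library size alone, 26 of the 40 genes were higher and 2 lower, and of the 65 other cilium genes 39 were higher and 2 lower. Dynll1 reversed to 0.03. Without DDR2-plus 4 and 5, an alternative chosen after seeing the data, 6 of the 40 genes and 9 of the other cilium genes were higher, and 2 of the latter lower. Leaving out single libraries gave 11 to 17 genes higher and 4 to 6 lower of the 40, and 15 to 22 higher and 3 to 4 lower of the others. Of all tested genes, 16.6% to 20.1% were then higher and 16.6% to 18.5% lower. DESeq2 called 16 of the 40 higher and 5 lower, where 21.7% and 17.8% of all tested genes were. With limma-voom the counts were 18 and 5, where 22.3% and 19.5% of all tested genes were. A fit with the replicate number as a block gave 17 higher and 4 lower of the 40, adding Wdr34, Kifap3, Bbs4 and Bbs9 (adjusted p = 0.0107, 0.0405, 0.0305 and 0.0173). In that fit, 19.8% of all tested genes were higher and 17.4% lower. Same-numbered libraries correlated at 0.029 to 0.053. Every library correlated best with its own number in the other population. Together with the shared numbers in the titles, this is a hint that the libraries were paired. The labels tie no number to an animal, and these correlations are low. The fit without a block was set as the main one because the labels name DESeq with no design. If the libraries were paired, the main fit ignored it. The lowest count of any of the 40 genes in a library was 85 (Traf3ip1, PSC 2).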
